A study of Phyllostachys edulis with 2 samples.

Results

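DNA transposon-derived transcripts were followed in rhizome lateral buds of wild type Moso bamboo (Phyllostachys edulis). The members are the assembled transcripts whose best protein match is described as a transposon or transposase, or by the name of a DNA transposon superfamily, without any word for a retrotransposon, a polyprotein, a reverse transcriptase or a virus. They numbered 98 of the 148492 transcripts and came from 53 of the 85391 loci. The buds were collected underground at the early shoot stage and, as the reference, at the germination stage. RNA of pooled buds gave 1 library per stage, so that differences could not be compared with a spread between replicates and no test across stages was possible. In bulk RNA of this kind, fewer cells of a type and less RNA per cell cannot be told apart.

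DNA transposons move by excision and reinsertion of the element itself, which is done by a transposase that recognises the ends of the element. In plants the main superfamilies are CACTA (also called En/Spm), Mutator, hAT, PIF/Harbinger and mariner, and most copies are held silent by DNA methylation that is guided by small RNAs. Some transposases were taken over by the host as ordinary genes, among them the FAR1 and FHY3 regulators of light signaling in Arabidopsis. A transcript with a transposase match can therefore come from a mobile element, from a decayed copy, from a host gene of this origin, or from a neighbouring gene whose transcript runs through an element.

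In total, 5870 of the 7878826 reads in early shoot stage and 2610 of the 4481221 reads in germination stage were counted on these transcripts. Scaled to the table totals, this was 745 RPM in early shoot and 582 RPM in germination. Reads were found on 96 members in early shoot stage and on all 98 in germination stage. Of all 148492 transcripts, 140500 had reads in early shoot and 134550 in germination. The median RPKM (reads per kilobase of transcript, scaled to the total of the table) of the members was 4.9 in early shoot and 4.065 in germination, and that of all transcripts was 4.15 in early shoot and 4.32 in germination. The members were between 154 and 4258 bp long, with a median of 485.5 bp compared with 329 bp over all transcripts. Of the 53 loci, 31 (58.5%) had a single assembled transcript, as had 81.8% of all loci.

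The reads were concentrated in few loci. The locus with the most reads held 23.8% of the reads of both libraries, the first 3 held 51.4%, and the first 15 held 90.2%. At the other end, 16 loci had fewer than 10 reads in both libraries together, and 23 loci had 10 or fewer in each library. These loci cannot show a difference at this depth unless it is very large.

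The name of a superfamily is given for few members. CACTA was named for 8 transcripts of 4 loci, Mutator for 5 transcripts of 3 loci and hAT for 2 transcripts of 1 locus, while the descriptions of 83 transcripts of 46 loci give none. Locus_832 has transcripts of both kinds and is counted under CACTA and under the last group. No description named PIF/Harbinger, Ping or mariner. The best match was a bamboo protein for 63 transcripts of 39 loci, a rice protein for 30 transcripts of 13 loci, a wheat protein for 4 transcripts and a maize protein for 1. Many loci shared a match: 15 loci had the same bamboo protein as the best match (called protein A here), 12 had another (protein B) and 7 yet another (protein C), all described as putative transposon protein. How reads were divided among loci with the same match is not known, so such loci may not be independent of each other.

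Summed over all members, the log2 ratio (early shoot over germination) was 0.32, with a 95% interval from 0.25 to 0.39. To make the libraries comparable, early shoot counts were divided by 1.8, the median ratio over transcripts with reads in both, and the interval is an exact Clopper-Pearson interval of the split of the reads, which covers counting error only. All transcripts together had a log2 ratio of -0.03 on the same scale. Counted by locus with equal weight, the 37 member loci with at least 10 reads had a median log2 ratio of 0.15 (quartiles -0.25 and 0.59), and 24 of them (64.9%) lay above 0. Over all 50409 loci with at least 10 reads the median was -0.02 and 48.7% lay above 0.

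For most single loci the ratio was not apart from 0. For each locus a G-fold value was calculated, a cautious log2 ratio: the end nearest 0 of the range between the lower and upper 0.01 quantiles of its posterior, set to 0 where that range includes 0. A locus was called when this value passed 1.0 in either direction and RPKM was above 1.0 in both libraries. Of the 51 member loci above the RPKM cutoff, 1 was called higher in early shoot stage (1.96%, compared with 1.39% of all loci) and 0 higher in germination stage (compared with 3.7%). Without regard to the threshold, 8 of the 51 had a G-fold value above 0 (15.7%, compared with 10.1% of all loci) and 1 had a value below 0 (1.96%, compared with 12.7%). By the plain log2 ratio with 1 read added, in place of the G-fold value, 5 of the 51 passed 1.0 towards early shoot (9.8%, compared with 10.4% of all loci) and 5 towards germination (9.8%, compared with 19.9%).
The sides were counted again among loci with at least 100 reads, where counts are large enough for smaller ratios. Of 15 such member loci, 7 had a G-fold value above 0 (46.7%, compared with 35.7% of all loci of this depth) and 0 had a value below 0 (compared with 30.2%). None of the 15 passed 1.0 in either direction, which 5.91% and 10.1% of all loci of this depth did towards early shoot and towards germination. By transcript, 1 of 94 members above the cutoff was called in early shoot stage (1.06%, compared with 1.4% of all transcripts) and 0 in germination stage (compared with 3.77%). Of the 6506 transcripts above the cutoff whose description names a protein, 2.49% were called in early shoot and 5.52% in germination. A G-fold value above 0 was found for 20.2% of them and below 0 for 19.9%, compared with 13.8% and 2.13% of the members. With at least 100 reads these shares were 29.6% and 25.1%, compared with 44.4% and 0% of 27 member transcripts. By plain log2 ratio with 1 read added, 11 of the 15 loci (73.3%) lay above 0, compared with 53.8% of all loci of this depth. The 95% interval of the ratio lay above 0 for 9 of all 53 member loci (17%, compared with 10.8% of all loci) and below 0 for 3 (5.66%, compared with 14.7%). The number of loci is small, and several share a best match.

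**Figure D1:**
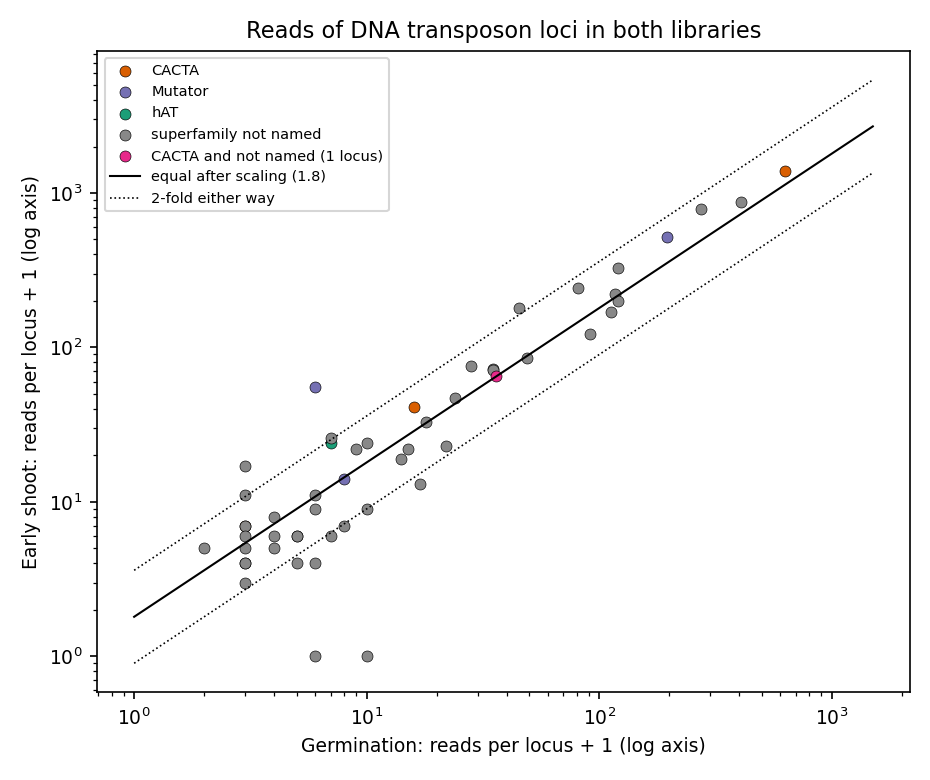
Reads of each of the 53 DNA transposon loci in early shoot stage (vertical) against germination stage (horizontal), with 1 read added and both axes logarithmic; colours give the superfamily, the solid line equal expression after scaling by 1.8 and the dotted lines a 2-fold difference. Of the 15 loci with at least 100 reads 11 lie above the solid line (73.3%, compared with 53.8% of all loci of this depth), a Mutator locus with 54 reads in early shoot and 5 in germination stands far above it, and 2 loci without reads in early shoot lie at the bottom.

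CACTA elements encode a transposase with a regulatory partner protein, which is known from En/Spm of maize. The CACTA transcripts had 1457 reads in early shoot and 653 in germination, a log2 ratio of 0.31 (95% interval 0.18 to 0.45). Nearly all of these reads lay on Locus_185, whose match is a CACTA, En/Spm protein of rice marked as expressed. It had 1389 reads in early shoot and 630 in germination, the most of any member locus, with a log2 ratio of 0.29 (95% interval 0.16 to 0.43) and a G-fold value of 0.13.
Locus_185 is represented by 5 transcripts of equal length, 4258 bp. They had 276, 316, 287, 313 and 197 reads in early shoot, and 122, 117, 127, 136 and 128 reads in germination. Their variance was 8.38 times the mean in early shoot and 0.40 times the mean in germination, where equal random division of reads gives a variance near the mean. The transcript with 197 reads had a log2 ratio of -0.23, and the other 4 had 0.33 to 0.59. The remaining 9 transcripts of the locus, which are not described as a transposon, had 565 reads in early shoot and 328 in germination, a log2 ratio of -0.06.
The other CACTA members were short and had few reads. Locus_27198 (485 bp) had 40 reads in early shoot and 15 in germination, and Locus_23696 (213 bp), with the same rice match, had 6 and 2 in the same order. The CACTA transcript of Locus_832 (157 bp) had 22 reads in early shoot and 6 in germination. Without Locus_185 the log2 ratio of the CACTA reads was 0.72 (95% interval 0.02 to 1.47), from 3 transcripts.

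Mutator elements carry the transposase MURA in maize, and the domesticated MUSTANG genes of plants descend from this superfamily. The Mutator transcripts had 582 reads in early shoot and 207 in germination, a log2 ratio of 0.64 (95% interval 0.41 to 0.88). Locus_41165 was the only member locus called. Its single transcript of 829 bp had 54 reads in early shoot and 5 in germination, or RPKM of 8.27 in early shoot and 1.35 in germination. The log2 ratio was 2.58 with a wide interval, from 1.27 to 4.26, and the G-fold value of 1.12 was just past the threshold. The best match is a Mutator protein of rice marked as expressed.
Most Mutator reads lay on Locus_1313, with 515 reads in early shoot and 195 in germination on 3 transcripts of 3771 to 3806 bp. The log2 ratio was 0.55 (95% interval 0.31 to 0.80) and the G-fold value 0.27. The 3 transcripts had 147, 181 and 187 reads in early shoot and 66, 68 and 61 in germination, so that all of them had ratios above 0. A G-fold value above 0 was found for 2 of them. A further transcript of this locus, of 2954 bp, is matched to SKIP interacting protein 17 of rice and had 113 reads in early shoot and 40 in germination, a log2 ratio of 0.65 (95% interval 0.12 to 1.21). The intervals of both descriptions overlap, and whether they belong to 1 gene cannot be told from the tables.
The remaining Mutator locus, Locus_41619, is matched to a putative mutator transposon protein of bamboo. It had 13 reads in early shoot and 7 in germination and a log2 ratio of 0.05 (95% interval -1.39 to 1.61). Without Locus_1313 the log2 ratio of the Mutator reads was 1.63 (95% interval 0.73 to 2.66), from Locus_41165 and Locus_41619. Most of these reads lay on Locus_41165, the locus that was called.

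The hAT superfamily includes the Ac element of maize, and its transposases form dimers through a domain near their C-terminus. Locus_30253 was the only locus with hAT in its description, matched to a rice protein described by this dimerisation domain. Its transcripts of 335 and 395 bp had 11 and 12 reads in early shoot and 3 and 3 in germination. The summed reads, 23 in early shoot and 6 in germination, had a log2 ratio of 1.09, but the interval from -0.25 to 2.68 included 0. Members whose description names no superfamily, such as the transposase-related transcripts of Locus_1534, were not assigned to one. Some of them may also be hAT, so these values cover only the locus described by that name.

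**Figure D2:**
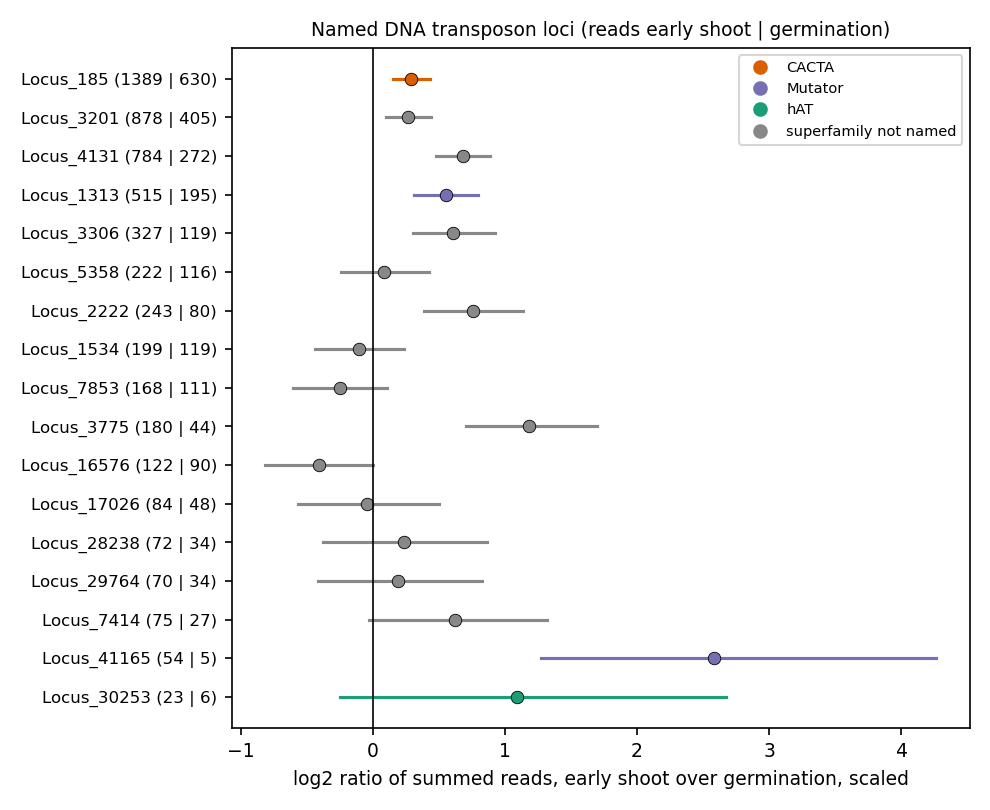
Log2 ratio, early shoot over germination (horizontal) for the 17 named DNA transposon loci, ordered by reads, with exact 95% Clopper-Pearson intervals as bars; reads in early shoot and in germination stand beside each name and colours give the superfamily. The intervals of 8 of these loci, which were chosen partly by their G-fold value, lie above 0 and none lies below it, while over all 53 loci 9 lie above 0 (17%, compared with 10.8% of all loci) and 3 below it (5.66%, compared with 14.7%), with Locus_41165 at 2.58 and Locus_3775 at 1.18 the farthest from 0.

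Among the members without a superfamily name, Locus_3201 and Locus_4131 had the most reads. Locus_3201 is matched to an unclassified transposon protein of rice marked as expressed, and all 6 transcripts of the locus carry this description. It had 878 reads in early shoot and 405 in germination, a log2 ratio of 0.27 (95% interval 0.10 to 0.44) and a G-fold value of 0.07. The ratios of its transcripts lay between 0.09 and 0.53, all above 0, but the G-fold value of each of them was 0. Transcripts of 1 locus are not replicates of each other.
Locus_4131, matched to a putative transposase of rice, had 784 reads in early shoot and 272 in germination on 6 transcripts of 2907 to 3095 bp. The log2 ratio was 0.68 (95% interval 0.48 to 0.88) and the G-fold value 0.44. Its 6 transcripts had between 118 and 149 reads in early shoot and between 39 and 55 in germination, with log2 ratios from 0.52 to 0.81. Among these transcripts the counts had a variance of 1.14 times the mean in early shoot and 0.62 times the mean in germination. The 10 other transcripts of the locus had a log2 ratio of 0.42.
Locus_3775 had the largest G-fold value among member loci with at least 100 reads, 0.63. It is matched to bamboo protein A and had 180 reads in early shoot and 44 in germination, a log2 ratio of 1.18 (95% interval 0.70 to 1.69). Transcript 2 (1578 bp), with 90 reads in early shoot and 13 in germination, had a G-fold value of 0.98, just below the threshold. Transcript 4 (1588 bp) had 63 reads in early shoot and 21 in germination, and transcript 1 (687 bp) had 27 and 10 in the same order. The remaining transcript of the locus, which is not described as a transposon, had 26 reads in early shoot and 32 in germination, a log2 ratio of -1.15. With it the locus as a whole had 0.59.

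Loci that share a bamboo match are given together. For the 15 loci matched to protein A, 477 reads were counted in early shoot and 244 in germination, a log2 ratio of 0.12 (95% interval -0.11 to 0.35). Of the 9 of these loci with at least 10 reads, 3 lay above 0 and 6 below it, with a median of -0.26, while Locus_3775 alone held 180 of the 477 reads in early shoot. Locus_7853, with 168 reads in early shoot and 111 in germination on 7 transcripts, had a log2 ratio of -0.25 (95% interval -0.60 to 0.11). Its transcripts went both ways, from -1.35 to 1.01. Transcript 3 of this locus (626 bp), with 12 reads in early shoot and 17 in germination, had the value farthest to the side of germination and a G-fold value of -0.11.
For the 12 loci matched to protein B, 1081 reads were counted in early shoot and 470 in germination, a log2 ratio of 0.35 (95% interval 0.20 to 0.51), which overlaps the interval of protein A. The most abundant was the 1048 bp transcript of Locus_3306, with 327 reads in early shoot and 119 in germination (RPKM 39.6 in early shoot and 25.3 in germination), a log2 ratio of 0.61 (95% interval 0.30 to 0.93) and a G-fold value of 0.25. It is 1 of 39 transcripts of its locus. Of the 38 others, 2 are described as retrotransposon protein and the rest carry no specific protein name. Together these 38 had a log2 ratio of 0.42. Locus_5358, in which all 5 transcripts carry the match, had 222 reads in early shoot and 116 in germination and a log2 ratio of 0.09 (95% interval -0.24 to 0.43). Locus_17026 had 84 reads in early shoot and 48 in germination and a log2 ratio of -0.04 (95% interval -0.57 to 0.50). In Locus_7414 the reads were 75 in early shoot and 27 in germination, with a log2 ratio of 0.63 (95% interval -0.03 to 1.32). Of its transcripts, that of 1005 bp had 29 reads in early shoot and 4 in germination, whereas that of 1391 bp had 46 in early shoot and 23 in germination.
The 7 loci matched to protein C had 333 reads in early shoot and 177 in germination, a log2 ratio of 0.06 (95% interval -0.20 to 0.34). Locus_16576 lay lowest of the 15 loci with the most reads, with 122 reads in early shoot and 90 in germination, and its log2 ratio of -0.41 had a 95% interval that ran from -0.81 and just reached 0. Locus_28238 had 72 reads in early shoot and 34 in germination, and Locus_29764 had 70 and 34 in the same order. Their log2 ratios of 0.23 and 0.19 were not apart from 0 (intervals from -0.37 to 0.87 and from -0.42 to 0.83).

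**Figure D3:**
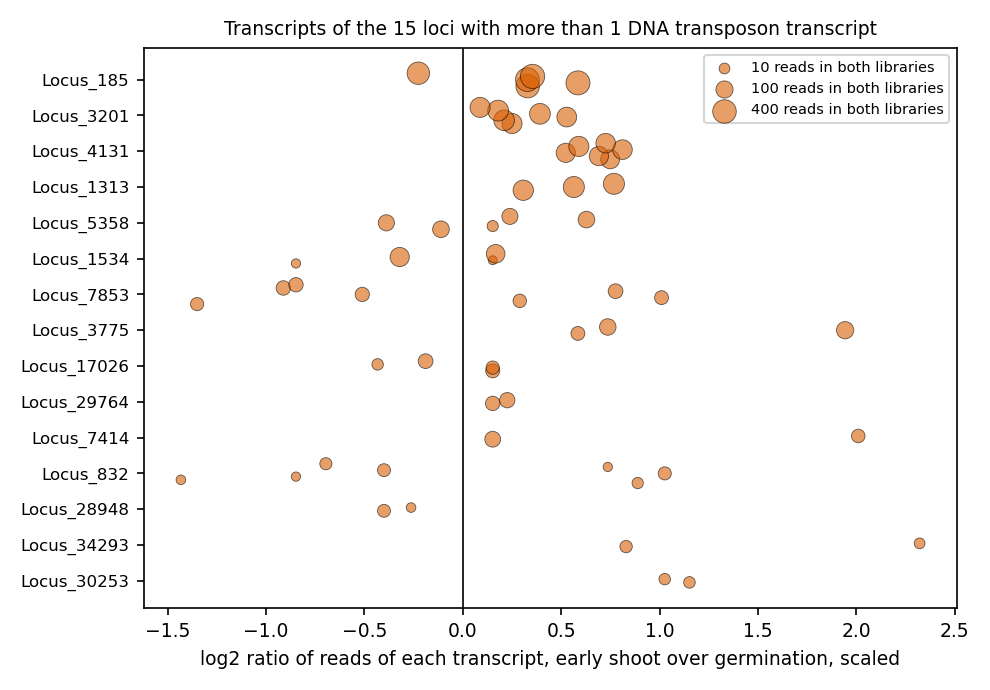
Log2 ratio, early shoot over germination (horizontal) of each of the 60 transcripts in the 15 loci with more than 1 DNA transposon transcript; loci are ordered by reads and the area of a point grows with the reads of the transcript. The transcripts of Locus_3201, Locus_4131 and Locus_1313 all lie above 0, while those of Locus_7853 spread from -1.35 to 1.01. Transcripts of a locus are not replicates of each other, and no G-fold value in Locus_3201 differed from 0.

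At 3 loci a transposon description stood beside that of another named protein. Locus_2222 holds a 1233 bp transcript matched to protein B with 243 reads in early shoot and 80 in germination, a log2 ratio of 0.75 (95% interval 0.38 to 1.14) and a G-fold value of 0.33. In the same locus 2 transcripts are matched to glyceraldehyde-3-phosphate dehydrogenase, an enzyme of glycolysis, and these had 201 reads in early shoot and 65 in germination, a log2 ratio of 0.78 (95% interval 0.37 to 1.21). All 23 other transcripts of the locus had a log2 ratio of 0.76, a value inside the interval of the transposon-matched transcript.
Locus_1534 holds 4 transcripts matched to the transposase-related proteins w-gary1 and w-gary2 of wheat, with 199 reads in early shoot and 119 in germination and a log2 ratio of -0.11 (95% interval -0.44 to 0.23). In this locus 2 transcripts are matched to the 8.2 kDa polypeptide of RNA polymerase II, the enzyme that makes messenger RNA. They had 763 reads in early shoot and 435 in germination, a log2 ratio of -0.04 (95% interval -0.21 to 0.14). Locus_1313, with its SKIP interacting protein, was the other locus of this kind. Without these 3 loci the members had a log2 ratio of 0.30.
Locus_832 is an assembly of 531 transcripts, of which 7 are members of 154 to 176 bp. These had 64 reads in early shoot and 35 in germination and a log2 ratio of 0.02 (95% interval -0.59 to 0.66), whereas the 524 other transcripts of the locus had a log2 ratio of 0.42.

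Reads were absent from the early shoot library for both loci described simply as transposase of bamboo, which share 1 match. Locus_21553 (182 bp) had 0 reads in early shoot and 9 in germination, and Locus_68691 (168 bp) had 0 and 5 in the same order. Taking 3 reads as the limit that a count of 0 allows in the early shoot library, and the germination counts as exact, expression in early shoot was at least 5.4-fold lower for Locus_21553 and at least 3-fold lower for Locus_68691, and at least 8.4-fold lower for their summed 14 reads. The exact 95% intervals, which also cover the counting error of the germination reads, allow smaller differences. Their upper ends were log2 ratios of -1.83 for Locus_21553, -0.72 for Locus_68691 and -2.58 for the sum. RPKM was 0 in early shoot, so neither locus could be called, although the G-fold value of Locus_21553 was -1.62. These were the only members without reads in a library. Transcripts without early shoot reads also occurred in the whole table, where 140500 of 148492 transcripts had reads in that library.

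The members were also divided by the length of the transcript. The 39 members under 300 bp had 295 reads in early shoot and 195 in germination and a log2 ratio of -0.25 (95% interval -0.52 to 0.02). The 23 members from 300 to under 1000 bp had a log2 ratio of 0.27 (95% interval 0.06 to 0.48), and the 36 members of 1000 bp or more, with 4973 reads in early shoot and 2138 in germination, had 0.37 (95% interval 0.30 to 0.44). Over all transcripts the values in the same order of length were -0.10, -0.05 and -0.02. Short transcripts thus lay lower in the whole table too, by a smaller amount. Retrotransposon transcripts under 300 bp, without those matched to a virus polyprotein, had -0.17 (95% interval -0.25 to -0.08), which overlaps the interval of the members. By species of the match, all 10 loci with a rice match and at least 10 reads lay above 0, with a median of 0.61, whereas of 26 loci with a bamboo match 14 lay above 0 and 12 below it, with a median of 0.03. The summed reads had log2 ratios of 0.42 (95% interval 0.33 to 0.51) for rice matches and 0.20 (95% interval 0.09 to 0.31) for bamboo matches. The 95% interval of several of the 10 included 0, as for Locus_27198, Locus_15621 and Locus_67740. Rice-matched loci with fewer reads lay on both sides, Locus_23696 above 0 and Locus_35899 and Locus_55945 below it. Both groupings were chosen after the reads had been seen, and whether they are separate was not tested.

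**Figure D4:**
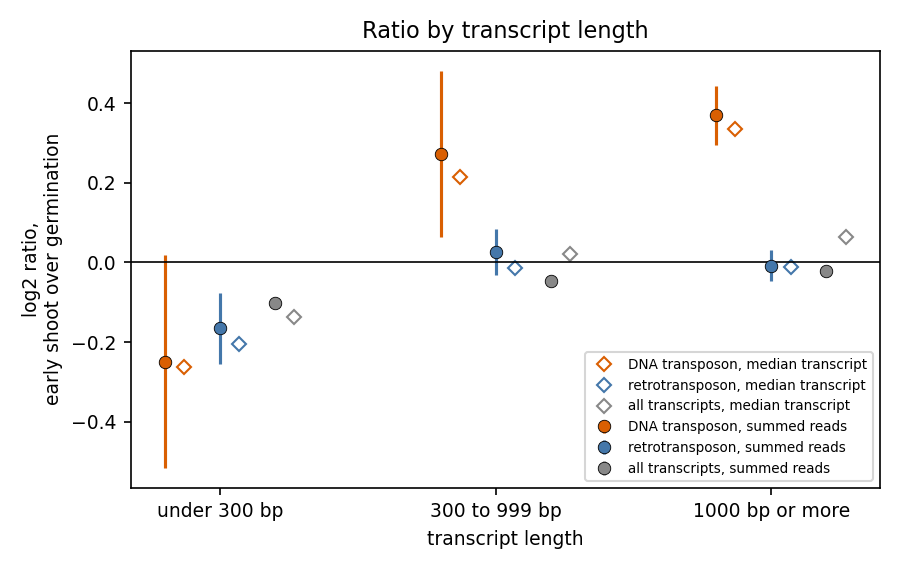
Log2 ratio, early shoot over germination (vertical) by class of transcript length for DNA transposon, retrotransposon and all transcripts; filled points are summed reads with exact 95% Clopper-Pearson intervals and open diamonds the median of transcripts with at least 10 reads. DNA transposon transcripts lie at -0.25 under 300 bp and at 0.37 from 1000 bp. Retrotransposon transcripts are plotted without those matched to a virus polyprotein, and lie at -0.17 under 300 bp and at -0.01 from 1000 bp.

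Retrotransposons, which move through an RNA copy, were taken for comparison as the group of transcripts most like the members. Descriptions naming a retrotransposon, a retroelement, a polyprotein or a reverse transcriptase were found for 780 transcripts of 477 loci, with 24292 reads in early shoot and 13256 in germination. Their log2 ratio was 0.03 (95% interval -0.0048 to 0.0565). With the other scalings the interval lay above 0, at 0.06 by table totals (0.03 to 0.09), 0.06 by TMM (0.03 to 0.09) and 0.11 by upper quartile (0.08 to 0.14), and these scalings raised the ratio of the DNA transposon reads by the same amounts. Leaving out 14 transcripts whose polyprotein is that of a virus, a choice made after the data were seen, gave -0.02 (95% interval -0.05 to 0.01). The interval of the DNA transposon reads, from 0.25 to 0.39, therefore does not overlap that of the retrotransposon reads, as far as counting error goes. By locus, retrotransposons without virus matches had a median of -0.04 and lay above 0 in 140 loci and below it in 155. Among classes, Ty1-copia had 0.22 (95% interval 0.12 to 0.33), which overlaps the interval of the DNA transposons, with a median of -0.01 over its loci, and Ty3-gypsy had -0.05 (95% interval -0.28 to 0.18). With the reads of 1 library per stage, these comparisons are of the libraries and not of the stages.

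**Figure D5:**
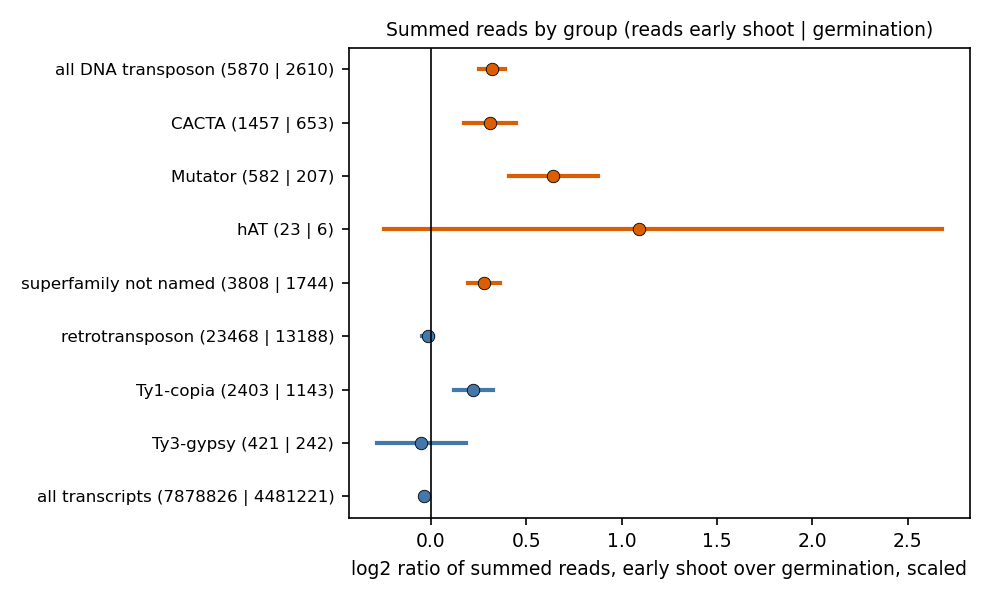
Log2 ratio of summed reads, early shoot over germination (horizontal), for the DNA transposon members and their superfamilies (orange) and for retrotransposons and all transcripts (blue), with exact 95% Clopper-Pearson intervals as bars; reads in early shoot and in germination stand beside each name. The DNA transposon members lie at 0.32, the retrotransposons without virus matches at -0.02 and Ty1-copia at 0.22.

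Few descriptions name the proteins that silence transposons or descend from them. For cytosine-5 DNA methyltransferase, which places the methylation that silences elements, 2 loci were found, with 74 reads in early shoot and 125 in germination and a log2 ratio of -1.60 (95% interval -2.04 to -1.18). Of these 2, Locus_10683 was called higher in germination stage, the direction in which 3.7% of all loci were called, with 57 reads in early shoot and 102 in germination and a G-fold value of -1.14, and Locus_32706, with 17 and 23 reads in the same order, had -0.22.
The small RNA pathway was represented by 10 loci of argonaute, Dicer and RNA-dependent RNA polymerase, with 3015 reads in early shoot and 1109 in germination and a log2 ratio of 0.59 (95% interval 0.50 to 0.70). None of the 10 was called (compared with 1.39% of all loci towards early shoot and 3.7% towards germination), and 3 had G-fold values above 0 and 0 below it (compared with 10.1% and 12.7% of all loci). Of the 9 loci with at least 10 reads, 5 had a log2 ratio above 0 and 4 below it. Most of these reads lay on argonaute 1B (Locus_519, 1797 in early shoot and 647 in germination, log2 ratio 0.63), which acts mainly with microRNAs, and on argonaute 12 (Locus_7404, 1045 in early shoot and 377 in germination, log2 ratio 0.62). A putative ARGONAUTE9 (Locus_4122) also had a G-fold value above 0, at 0.16. It had 69 reads in early shoot and 19 in germination, a log2 ratio of 1.01 (95% interval 0.26 to 1.83). The Dicer family makes the small RNAs of silencing. The 3 loci of Dicer homolog 3b had at most 32 reads in a library and log2 ratios of -0.43, -0.85 and -0.11, and Dicer homolog 2b had -0.06. Argonaute 16 had a log2 ratio of -0.43, from 16 reads in early shoot and 12 in germination. The 95% intervals of argonaute 16 and of all these Dicer loci included 0. The match to RNA-dependent RNA polymerase 2 had 14 reads in early shoot and 4 in germination (log2 ratio 0.96, 95% interval -0.71 to 3.02).
For histone lysine methylation only EZ3 was found, an enzyme of the Polycomb type and not of the type that marks transposons. It had 82 reads in early shoot and 45 in germination and a log2 ratio of 0.02 (95% interval -0.52 to 0.58). Among proteins derived from transposases, a far-red impaired response protein had 10 reads in early shoot and 6 in germination, with a log2 ratio of -0.11 (95% interval -1.71 to 1.63).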

How the data were processed

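Per the labels, 1 library of rhizome lateral buds was sequenced per stage. The authors deposited a read count for each assembled transcript, not normalized, and the RPKM of each transcript, which recalculation from counts, lengths and table totals matched to within 0.0483. The submitters' processing notes name TopHat2 2.0.8b and Cufflinks 2.2.1. The paper describes keeping 1 position per read, whereas the transcript names look like those of a de novo assembly. The paper describes a BLAST search against rice proteins, whereas the matches in the tables include bamboo, wheat and maize proteins, so the search behind them may be another one. The assembler and counter of these tables are not given in the sources used here. Reads of near-identical element copies may therefore be misplaced.

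Members were found by description and their reads summed per locus with pandas 2.3.3, NumPy 2.4.6 and SciPy 1.17.1 under Python 3.11.15. The RPKM of a locus is the sum over the transcripts counted. Background loci use all their transcripts. The G-fold value, modelled on Gfold without that program, uses a beta posterior of the read split, adding 1 read per library. Single-locus medians add 1 read, and ratios of sums add none. The calculation was tested on simulated data.

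The named loci are those called, the 15 with the most reads, up to 3 per direction with the largest G-fold value from 100 reads, and the most abundant of each superfamily, which gave 17. Loci described beyond this rule were chosen after their values were seen. Members, lists and tests were chosen with earlier results of these data known. Alternatives were the scaling by table totals (1.76), by TMM of edgeR 4.0.16 under R 4.3.3 (1.76) or by upper quartile (1.7), other cutoffs, quantiles and thresholds, thinning of the early shoot library, and other ways to sum a locus.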

Additional observations from a re-analysis of the deposited data

How the results depend on the processing

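The log2 ratio of the summed reads stayed above 0 under every alternative run. It was 0.40 with the upper quartile and 0.40 with only the descriptions that name a superfamily, and among alternatives chosen after seeing the data it was 0.27 without the 3 loci with the most reads and 0.30 without the 3 loci that also carry another named protein. Without its most abundant locus the ratio was 0.72 for CACTA and 1.63 for Mutator, while hAT is named for a single locus and gave no value. The count of called loci in early shoot was 5 with the plain log2 ratio and 0 with a threshold of 2.0. In germination it was 5 with the plain log2 ratio, and 1 either without an RPKM cutoff or with RPKM above 1.0 in at least 1 library. The count of called transcripts in early shoot was 2 with each other scaling, with a quantile of 0.05 and after thinning, 4 with the plain log2 ratio and 0 with a threshold of 2.0. In germination it was 7 with the plain log2 ratio, and 1 without an RPKM cutoff or with RPKM above 1.0 in at least 1 library. The other alternatives run left the calls at 1 in early shoot and 0 in germination. The median of member loci was between 0.03, with at least 1 read, and 0.27, with at least 50 reads. The other scalings raised every ratio by 0.03 to 0.08. Of the 17 named loci, 1 moved out of its interval when all transcripts of the locus were summed, Locus_3775 with 0.59. No paired analysis was possible because each stage has 1 library.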

Other observations

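The 14 transcripts left out of the retrotransposon comparison share the description polyprotein of Soybean mosaic virus, a plant RNA virus, and came from 13 loci. They had 824 reads in early shoot and 68 in germination, with a log2 ratio of 2.75 (95% interval 2.39 to 3.13). Of the 6 retrotransposon loci called higher in early shoot stage (1.42% of those above the RPKM cutoff), 5 were loci of this kind, and 1 was left without them. All 12 of these loci with at least 10 reads lay above 0.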
